A study of Mus musculus with 6 samples.

Results

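The SLC25 family comprises the carriers that move nucleotides, phosphate, carboxylates, amino acids, cofactors, iron and glutathione across the inner mitochondrial membrane, with a few members in the outer membrane or in peroxisomes. Its members were taken as every gene whose symbol starts with Slc25a, which gave 47 of the 24421 genes listed, and were grouped by known substrate. Relatives with other symbols, such as Ucp2, Mtch1 and Mtch2, belong to the family but were left out by this rule. RNA from mouse kidney was sequenced in 6 libraries of proximal tubular epithelial cells in primary culture, taken from the tubule segment next to the glomerulus. The KO group held 3 libraries of cells labelled Atg5KO and the control group 3 libraries labelled Atg5F/F, a floxed Atg5 genotype. ATG5 takes part in joining LC3 to the membrane of the growing autophagosome. Cells of both groups had received 20 µM erastin2 for 24 h, an analogue of erastin that blocks cystine import and lowers cellular glutathione. No untreated cells were analysed here, so a genotype difference that precedes the drug and a genotype difference in the answer to it cannot be told apart. The labels give neither the Cre driver, the deleted exon, the age of the mice nor the animal or culture behind each library. The p-values below therefore reflect variation among these samples alone, and that variation may be technical.

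Most SLC25 carriers share a fold built from repeats of a pair of membrane-spanning helices, and exchange a molecule of the matrix for a molecule of the cytosol. Oxidative phosphorylation depends on them, since ADP and phosphate have to enter the matrix and ATP has to leave it, and the series was set up around the effect of Atg5 knockout on that pathway. Proximal tubule cells rest on mitochondrial ATP for reabsorption, and use the same carriers for citrate handling, ammonia formation from glutamine and the transfer of reducing equivalents.

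The deposited levels were FPKM, fragments scaled to gene length and library size, and the read totals they imply were 19724355, 16922491 and 17402904 in the Atg5KO libraries, against 30004933, 15528454 and 22332418 in the Atg5F/F libraries. Atg5 itself was higher where the label reads Atg5KO, with 13.3, 11.5 and 12.7 FPKM there and 8.76, 8.95 and 7.94 FPKM in the libraries labelled Atg5F/F (log2 fold change 0.50), so every direction below rests on the labels. A level summed over the whole gene does not show whether an exon is missing. Of 16 proximal tubule markers, 7 passed the filter, 5 of them lower and 1 higher in Atg5KO, and the list summed to 362 to 391 FPKM in Atg5KO and 456 to 480 FPKM in Atg5F/F, with Slc22a8 at 0 throughout. Pax8, not called, held much of this sum, with means of 241 FPKM in Atg5KO and 234 FPKM in Atg5F/F. The 9 under the filter were Cubn, Slc34a1, Slc5a2, Slc5a12, Slc22a6, Slc22a8, Fbp1, Miox and Pck1. Of 11 fibroblast and mural markers, 3 passed the filter and all of these (Acta2, Tagln and Postn) were higher in Atg5KO, with the list summing to 238 to 296 FPKM in Atg5KO and 66.6 to 73.3 FPKM in Atg5F/F. The collagen genes Col1a1, Col1a2 and Col3a1 stayed under the filter. Endothelial markers summed to 7.4 to 9.03 FPKM in Atg5KO and 10.3 to 11.9 FPKM in Atg5F/F. Of these 7 genes, Kdr was lower, with means of 5.53 FPKM in Atg5KO and 9.06 FPKM in Atg5F/F, Flt1 was not called, with means of 2.12 FPKM in Atg5KO and 1.71 FPKM in Atg5F/F, and 5 (Pecam1, Cdh5, Emcn, Tek and Vwf) were under the filter. Leukocyte markers summed to 10.3 to 12.6 FPKM in Atg5KO and 11.0 to 13.3 FPKM in Atg5F/F, with Adgre1, Itgam and Cd3e at 0. The part of these markers and of Atg5 in the carrier results was not tested. In bulk RNA, fewer cells of a type and less RNA per cell cannot be told apart.

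Carrier transcripts as a whole were slightly less abundant in the libraries labelled Atg5KO. Summed over the family, the level was 1454, 1439 and 1372 FPKM in Atg5KO, against 1555, 1540 and 1565 FPKM in Atg5F/F. The highest Atg5KO library stayed below the lowest Atg5F/F library. The means were 1422 ± 43.7 FPKM in Atg5KO and 1553 ± 12.6 FPKM in Atg5F/F (SD, n = 3 each). As a share of all FPKM in a library, the family held 0.395%, 0.389% and 0.384% in Atg5KO, against 0.413%, 0.408% and 0.414% in Atg5F/F.

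A handful of genes carried most of this sum. Slc25a4 and Slc25a5, which exchange ADP for ATP, the phosphate carrier Slc25a3 and the glutathione carrier Slc25a39 together made up 58.0%, 58.5% and 56.7% of it in Atg5KO, against 60.1%, 59.9% and 60.4% in Atg5F/F. Averaged over all 6 libraries, Slc25a4 came first, followed by Slc25a3, Slc25a5, Slc25a39, Slc25a17 and Slc25a1. Slc25a3 and Slc25a5 overlapped in Atg5F/F, where Slc25a3 had 234 to 245 FPKM and Slc25a5 had 228 to 236 FPKM. In Atg5KO they stood apart, with Slc25a3 at 204 to 230 FPKM and Slc25a5 at 165 to 180 FPKM. Slc25a54 was listed at 0 in every library, and 46 members were above 0 in at least 1.

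**Figure D1:**
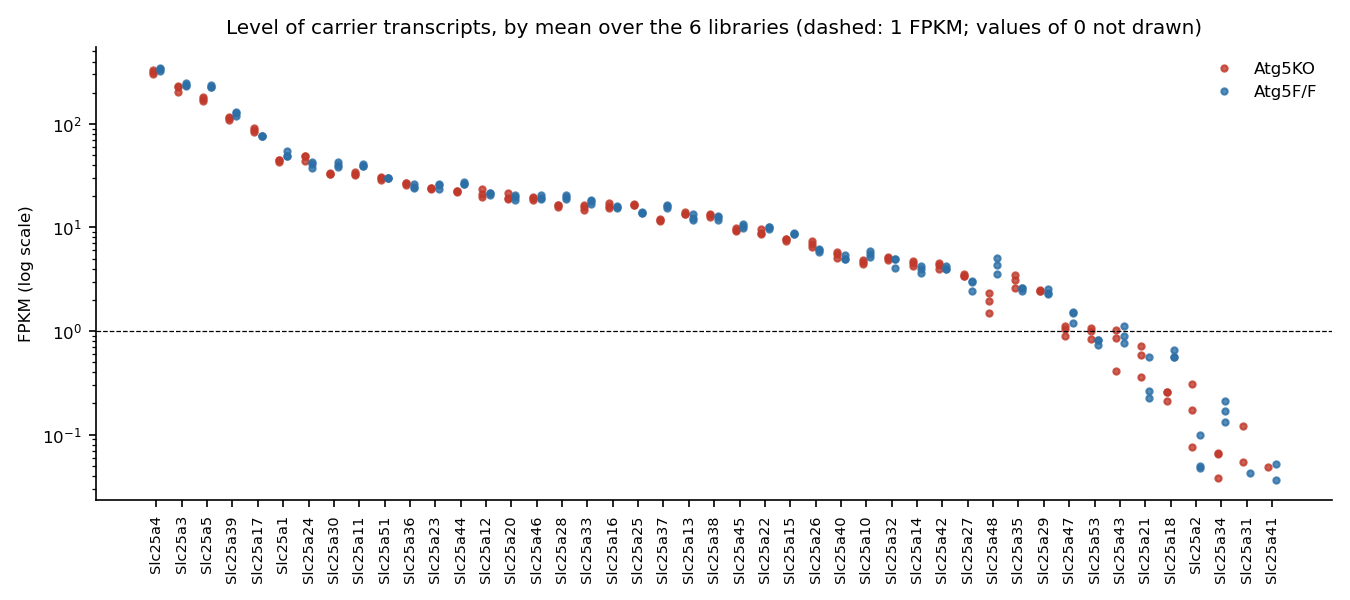
Level of SLC25 members in FPKM on a log axis, with 1 point per library, Atg5KO and Atg5F/F beside each other, and values of 0 not drawn. Slc25a4 stood highest in both groups, and the drawn members that did not pass the filter lie near or under the dashed line at 1 FPKM, with Slc25a54, at 0, left out.

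Of the 47 members, 38 passed the filter of 1 FPKM in at least 3 libraries and were tested with limma among all 11559 such genes. In Atg5KO, 13 were lower and 4 were higher at an adjusted p under 0.05, and 21 were not called. The share of all tested genes called was 39.2% (17.9% lower and 21.3% higher), against 44.7% of the tested members (34.2% lower and 10.5% higher). Counts by substrate group below rest on 3 to 8 tested genes each and are to be set against the same shares of all tested genes. Fold changes are Atg5KO minus Atg5F/F on the log2(FPKM + 1) scale, which understates the change of low genes. The members' median was -0.04 and their range was -0.86 to 0.25, against a median of 0.02 over all tested genes. By library values alone, 16 members lay wholly lower in Atg5KO and 6 wholly higher, and the other 16 overlapped. Over all tested genes, 51.9% did not overlap, 23.2% lying wholly lower and 28.7% wholly higher. The 4 higher calls fell to 2 without Atg5KO replicate 3, without Atg5F/F replicate 2 or without Atg5F/F replicate 3.

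**Figure D2:**
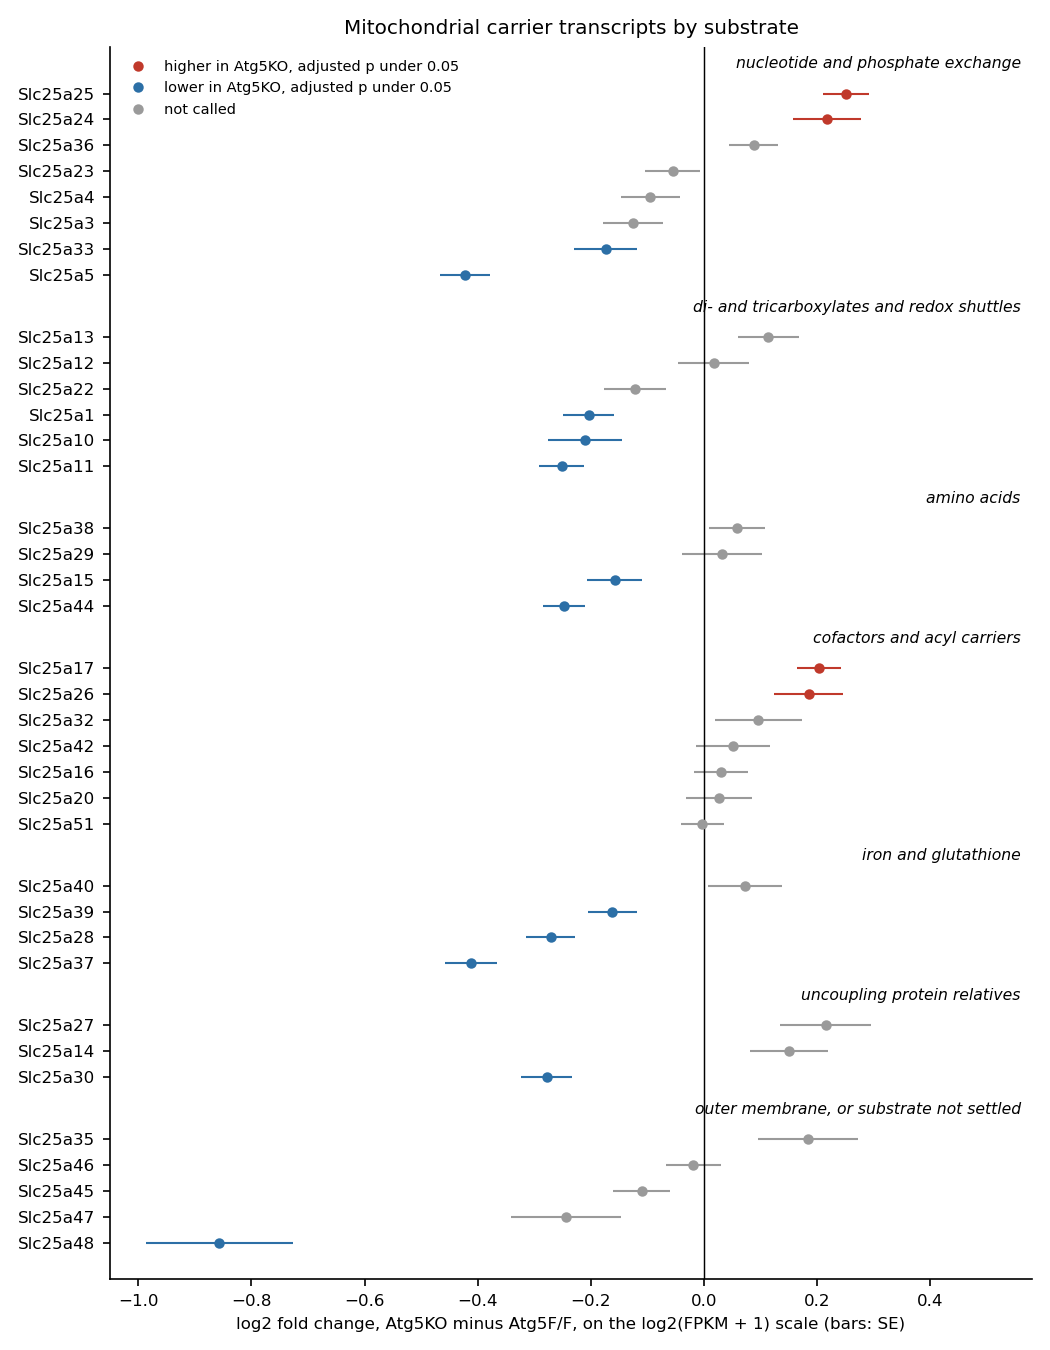
Log2 fold change of tested members, Atg5KO minus Atg5F/F, on the log2(FPKM + 1) scale, with bars of 1 standard error and members grouped by substrate. Most substrate groups hold members lower in Atg5KO, and the 4 higher members lie in the nucleotide and cofactor groups.

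Nucleotide and phosphate carriers moved in both directions. Of 8 tested, 2 fell and 2 rose, with a median log2 fold change of -0.08. Gene positions are given on GRCm38 from GENCODE vM21. Slc25a5 (chrX:36795651-36798807, plus strand), adenine nucleotide translocase 2, had the largest drop among the abundant members: it had 180, 172 and 165 FPKM in Atg5KO, against 228, 236 and 229 FPKM in Atg5F/F. All 3 Atg5KO libraries lay below all 3 Atg5F/F libraries. The log2 fold change was -0.42 (SE 0.0443, limma adjusted p = 0.000156). Its relative Slc25a4 (chr8:46206797-46211284, minus strand), adenine nucleotide translocase 1, had 318, 331 and 300 FPKM in Atg5KO and 341, 323 and 349 FPKM in Atg5F/F. These ranges overlapped, and the log2 fold change of -0.10 was not called (adjusted p = 0.184). Slc25a5 made up 36.1%, 34.2% and 35.4% of the summed level of the adenine nucleotide translocases in Atg5KO, against 40.0%, 42.2% and 39.6% in Atg5F/F. These shares did not overlap, and the 2-sided exact permutation p was 0.1, the smallest that 3 against 3 libraries can give. Slc25a31, the germ cell translocase, did not pass the filter. How the authors counted reads that map to several places is not given in the sources used here, so the split between similar genes such as these is uncertain.

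The promoters of this pair are printed because one gene fell and the other was not called. They span 250 bases before to 50 after the RefSeq gene start on GRCm38.p6, 5′ to 3′ on the gene's strand, with capitals marking matches to the motifs named after them. Slc25a5 lies at chrX:36795347-36795646 (plus strand) and Slc25a4 at chr8:46211013-46211312 (minus strand). The RefSeq starts used here differ from the GENCODE gene starts given above. Most of the Slc25a4 window, with its CCAAT matches, lies inside the GENCODE gene, while the Slc25a5 window ends before the GENCODE start. The windows are thus placed unlike each other relative to the GENCODE genes.
Slc25a5 promoter: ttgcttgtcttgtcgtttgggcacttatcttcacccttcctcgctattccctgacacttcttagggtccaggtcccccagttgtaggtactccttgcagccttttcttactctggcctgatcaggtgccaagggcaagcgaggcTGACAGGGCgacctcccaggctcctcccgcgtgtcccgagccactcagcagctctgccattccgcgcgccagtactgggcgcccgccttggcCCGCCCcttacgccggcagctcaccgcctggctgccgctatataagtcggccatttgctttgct
Slc25a4 promoter: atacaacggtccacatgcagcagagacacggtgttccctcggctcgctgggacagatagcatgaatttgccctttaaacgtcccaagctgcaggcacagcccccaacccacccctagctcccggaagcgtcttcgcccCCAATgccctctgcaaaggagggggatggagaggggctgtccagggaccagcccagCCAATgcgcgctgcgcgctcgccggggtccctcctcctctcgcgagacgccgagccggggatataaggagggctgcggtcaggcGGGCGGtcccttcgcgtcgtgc
The Slc25a5 window held a GC box (GGGCGG, on either strand) that begins at base -14 and a match to TGACNNNGC, the core of the antioxidant response element, that begins at base -106. The Slc25a4 window held CCAAT at bases -112 and -56 and a GC box at base 29 after the start. A match of letters shows no bound factor.

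Slc25a3 (chr10:91116574-91124059, minus strand), which brings phosphate into the matrix with protons, had 230, 226 and 204 FPKM in Atg5KO, against 245, 234 and 239 FPKM in Atg5F/F. No Atg5KO library reached the Atg5F/F range, yet the log2 fold change of -0.13 was not called (adjusted p = 0.0900). It was called with median-ratio scaling (-0.15, adjusted p = 0.0481) and with voom on the recovered reads (-0.13, adjusted p = 0.0264).

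The ATP-Mg/phosphate carriers adjust the adenine nucleotide pool of the matrix and carry calcium-binding arms. Slc25a25 (chr2:32414487-32451445, minus strand) had 16.3, 16.5 and 17.0 FPKM in Atg5KO, against 13.79, 13.95 and 13.64 FPKM in Atg5F/F. Its groups were well apart, with a log2 fold change of 0.25 (SE 0.0401, adjusted p = 0.0015), the largest rise in the family among called members. Slc25a24 (chr3:109123149-109168457, plus strand) had 48.7, 44.0 and 49.0 FPKM in Atg5KO, against 43.3, 37.7 and 40.5 FPKM in Atg5F/F. The lowest Atg5KO library was just above the highest Atg5F/F library. Its log2 fold change of 0.22 (SE 0.0601, adjusted p = 0.0199) was not called without Atg5KO replicate 1 (adjusted p = 0.0674), Atg5KO replicate 3 (0.0580), Atg5F/F replicate 2 (0.0599) or Atg5F/F replicate 3 (0.0561), nor without a filter (0.0509). The third carrier of this kind, Slc25a23, had 24.2, 23.8 and 24.0 FPKM in Atg5KO and 23.3, 26.3 and 25.4 FPKM in Atg5F/F, and was not called (log2 fold change -0.06, adjusted p = 0.401). Within the summed level of these carriers, the share of Slc25a23 was 27.1%, 28.1% and 26.7% in Atg5KO, against 28.9%, 33.7% and 31.9% in Atg5F/F.

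Slc25a33 and Slc25a36 carry pyrimidine nucleotides, the supply for mitochondrial DNA and RNA. Slc25a33 had 15.9, 16.5 and 14.6 FPKM in Atg5KO, against 16.8, 18.3 and 18.2 FPKM in Atg5F/F, with a log2 fold change of -0.17 (SE 0.0555, adjusted p = 0.0354). This call was lost without a filter (adjusted p = 0.0660), without Atg5KO replicate 1 (0.0676) or 3 (0.103), and without Atg5F/F replicate 2 (0.0989) or 3 (0.114). Slc25a36 had 26.7, 25.8 and 27.1 FPKM in Atg5KO and 26.1, 24.1 and 24.5 FPKM in Atg5F/F, which overlapped (log2 fold change 0.09, adjusted p = 0.141). Of the pair's summed level, Slc25a33 made up 37.3%, 39.0% and 35.0% in Atg5KO and 39.2%, 43.2% and 42.6% in Atg5F/F.

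Carriers of di- and tricarboxylates were lower or not called. Of 6 tested, 3 fell and none rose, and the median log2 fold change was -0.16. Slc25a11 (chr11:70644196-70647479, minus strand), the oxoglutarate carrier that exchanges malate for 2-oxoglutarate in the malate-aspartate shuttle, had 32.7, 34.5 and 32.2 FPKM in Atg5KO, against 39.1, 39.2 and 40.5 FPKM in Atg5F/F. Its groups were clearly separated, with a log2 fold change of -0.25 (SE 0.0398, adjusted p = 0.00145). Slc25a1 (chr16:17925223-17928219, minus strand), which exports citrate for fatty acid synthesis, had 44.6, 44.6 and 42.9 FPKM in Atg5KO, against 49.2, 54.2 and 49.5 FPKM in Atg5F/F. All Atg5KO libraries were lower, and the log2 fold change was -0.20 (SE 0.0456, adjusted p = 0.00788). Slc25a10, which exchanges dicarboxylates for phosphate, was scarcer, with 4.83, 4.64 and 4.47 FPKM in Atg5KO and 5.16, 5.94 and 5.51 FPKM in Atg5F/F. Its log2 fold change of -0.21 (SE 0.065, adjusted p = 0.0316) was not called without Atg5KO replicate 2 (adjusted p = 0.0642) or 3 (0.0890), without Atg5F/F replicate 2 (0.0960) or 3 (0.0835), or without a filter (0.0698).

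The aspartate-glutamate carriers of the same shuttle did not pass the test. Slc25a12, aralar, had 21.2, 23.5 and 19.5 FPKM in Atg5KO and 21.3, 21.3 and 20.6 FPKM in Atg5F/F, with the Atg5KO libraries on both sides of the Atg5F/F range. Slc25a13, citrin, had 14.1, 13.4 and 13.6 FPKM in Atg5KO and 13.5, 11.9 and 12.3 FPKM in Atg5F/F, with a log2 fold change of 0.11 (adjusted p = 0.127). The glutamate carrier Slc25a22 had 8.604, 9.738 and 8.885 FPKM in Atg5KO and 10.1, 9.71 and 10.0 FPKM in Atg5F/F, with a log2 fold change of -0.12 (adjusted p = 0.112). The other glutamate carrier, Slc25a18, did not pass the filter, with 7, 6 and 5 recovered reads in Atg5KO, against 23, 12 and 20 in Atg5F/F.

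Among the amino acid carriers, 2 of 4 tested members fell and none rose. Slc25a44 (chr3:88410498-88425139, minus strand), which imports branched-chain amino acids, had 22.6, 22.4 and 21.9 FPKM in Atg5KO, against 26.3, 26.5 and 27.2 FPKM in Atg5F/F. Each group kept within a narrow range and the log2 fold change was -0.25 (SE 0.037, adjusted p = 0.00105). Slc25a15, which exchanges ornithine for citrulline in the urea cycle, had 7.79, 7.77 and 7.38 FPKM in Atg5KO, against 8.61, 8.57 and 8.75 FPKM in Atg5F/F. Its log2 fold change of -0.16 (SE 0.0481, adjusted p = 0.0296) lost its call when any library other than Atg5KO replicate 2 was left out, with adjusted p between 0.0546 and 0.0996. Slc25a38, which imports glycine for haem synthesis, and Slc25a29, a carrier of basic amino acids, were not called, with log2 fold changes of 0.06 and 0.03.

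Among 8 tested cofactor carriers, 2 rose. Slc25a17 (chr15:81318911-81360812, minus strand), the peroxisomal carrier of CoA, FAD and NAD, had 91.3, 87.5 and 84.2 FPKM in Atg5KO, against 76.3, 75.9 and 75.6 FPKM in Atg5F/F. The lowest Atg5KO library exceeded every Atg5F/F library, and the log2 fold change was 0.20 (SE 0.0391, adjusted p = 0.00383). Slc25a26, which brings S-adenosylmethionine into the matrix for methylation, had 6.50, 7.42 and 6.92 FPKM in Atg5KO, against 6.15, 5.81 and 6.00 FPKM in Atg5F/F. Its log2 fold change of 0.19 (SE 0.0603, adjusted p = 0.0385) lost its call in 10 of the 15 alternatives, among them median-ratio scaling (adjusted p = 0.0562), quantile normalization (0.0645), voom (0.0856), no filter (0.0756) and the fits without Atg5KO replicate 2 (0.112) or 3 (0.0805) or without Atg5F/F replicate 1 (0.0607), 2 (0.0989) or 3 (0.0962). The carnitine carrier Slc25a20, the CoA carriers Slc25a16 and Slc25a42, the folate carrier Slc25a32 and the NAD carrier Slc25a51 were not called.

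The promoter of Slc25a17 is printed as that of the most abundant member that rose, beside that of Slc25a24, the next. Slc25a17 lies at chr15:81360716-81361015 (minus strand) and Slc25a24 at chr3:109122899-109123198 (plus strand), both shown as for the translocases, with capitals marking matches.
Slc25a17 promoter: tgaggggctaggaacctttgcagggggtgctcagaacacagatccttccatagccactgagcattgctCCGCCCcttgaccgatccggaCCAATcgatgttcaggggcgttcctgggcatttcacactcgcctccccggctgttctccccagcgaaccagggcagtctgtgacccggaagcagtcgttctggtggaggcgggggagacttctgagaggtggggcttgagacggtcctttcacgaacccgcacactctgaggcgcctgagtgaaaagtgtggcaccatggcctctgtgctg
Slc25a24 promoter: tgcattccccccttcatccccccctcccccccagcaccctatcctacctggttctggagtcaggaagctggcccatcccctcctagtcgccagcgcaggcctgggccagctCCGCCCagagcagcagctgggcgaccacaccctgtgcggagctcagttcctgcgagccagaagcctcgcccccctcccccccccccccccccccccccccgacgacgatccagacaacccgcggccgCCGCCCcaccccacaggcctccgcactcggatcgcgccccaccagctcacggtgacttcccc
The Slc25a17 window held a GC box at base -182 and CCAAT at base -161, and the Slc25a24 window held GC boxes at bases -139 and -12.

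Carriers of iron and glutathione, the materials of iron-sulphur clusters and of the antioxidant pool that erastin2 depletes, included 3 that fell among 4 tested. The median log2 fold change was -0.22. Slc25a37 (chr14:69241848-69285112, minus strand), mitoferrin 1, had 11.9, 11.4 and 11.8 FPKM in Atg5KO, against 16.4, 15.2 and 16.2 FPKM in Atg5F/F, a log2 fold change of -0.41 (SE 0.0457, adjusted p = 0.000209). Slc25a28 (chr19:43663801-43674881, minus strand), mitoferrin 2, had 15.9, 16.4 and 16.4 FPKM in Atg5KO, against 19.7, 19.0 and 20.6 FPKM in Atg5F/F, a log2 fold change of -0.27 (SE 0.0438, adjusted p = 0.00157). For both iron importers the groups were separated by more than the spread within either. Slc25a28 made up 57.1%, 58.9% and 58.1% of the pair's summed level in Atg5KO, against 54.6%, 55.5% and 56.0% in Atg5F/F.

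Slc25a39 (chr11:102402985-102407946, minus strand), which imports glutathione, had 116, 114 and 110 FPKM in Atg5KO, against 120, 131 and 129 FPKM in Atg5F/F. All Atg5KO libraries were lower, with a log2 fold change of -0.16 (SE 0.0438, adjusted p = 0.0187). It was not called under quantile normalization (-0.07, adjusted p = 0.200), without Atg5F/F replicate 2 (0.0592) or without Atg5F/F replicate 3 (0.0756). Its relative Slc25a40 was not called (log2 fold change 0.07). The promoter of Slc25a28, from chr19:43674832-43675131 (minus strand), is printed because both mitoferrins fell, again with matches in capitals.
Slc25a28 promoter: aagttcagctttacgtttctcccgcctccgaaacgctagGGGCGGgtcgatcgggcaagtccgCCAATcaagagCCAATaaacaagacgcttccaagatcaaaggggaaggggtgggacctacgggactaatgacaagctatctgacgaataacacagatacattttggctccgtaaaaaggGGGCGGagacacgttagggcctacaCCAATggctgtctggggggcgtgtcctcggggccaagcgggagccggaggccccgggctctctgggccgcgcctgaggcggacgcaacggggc
It held GC boxes at bases -211 and -68 and CCAAT at bases -187, -176 and -43.

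**Figure D3:**
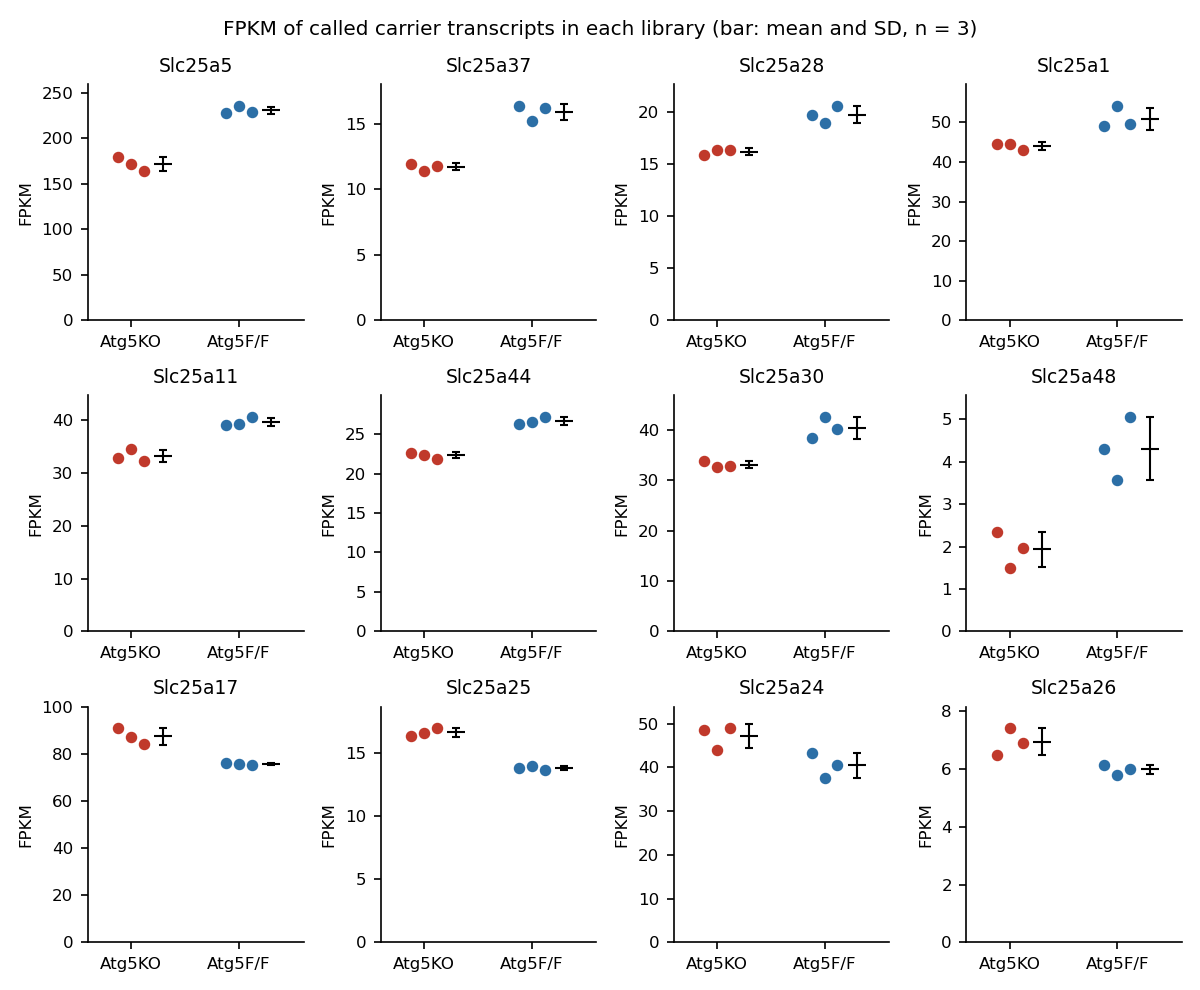
FPKM of 12 called members in each library, Atg5KO left of Atg5F/F, with the mean and SD of 3 libraries beside the points and every axis starting at 0. The upper 2 rows show members lower in Atg5KO, such as Slc25a5 at 165 to 180 FPKM in Atg5KO against 228 to 236 FPKM in Atg5F/F, and the bottom row shows the 4 higher members.

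Among the relatives of the uncoupling proteins, 1 of 3 tested members fell. Slc25a30 (chr14:75760117-75787037, minus strand), known as kidney mitochondrial carrier protein 1, had 33.9, 32.6 and 32.8 FPKM in Atg5KO, against 38.4, 42.6 and 40.2 FPKM in Atg5F/F. The gap between the groups was wider than the Atg5KO spread, with a log2 fold change of -0.28 (SE 0.0449, adjusted p = 0.00157). Slc25a14 and Slc25a27 each lay wholly higher in Atg5KO, with log2 fold changes of 0.15 and 0.22, and were not called.

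In the last group, of outer membrane members and members with no settled substrate, 1 of 5 tested fell. Slc25a48 (chr13:56438355-56474239, plus strand), which has been linked to mitochondrial choline uptake, had 2.335, 1.499 and 1.956 FPKM in Atg5KO, against 4.29, 3.57 and 5.05 FPKM in Atg5F/F. Its log2 fold change of -0.86 (SE 0.13, adjusted p = 0.00113) was the largest among tested members, although it rests on 69, 38 and 51 reads in Atg5KO and 193, 83 and 169 reads in Atg5F/F. Slc25a46, an outer membrane protein tied to mitochondrial shape, was not called (-0.02), nor were Slc25a35 (0.18), Slc25a45 (-0.11) and Slc25a47 (-0.24).

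Across 14 shares of a member within its set of close relatives, 7 did not overlap between groups, those of Slc25a4 and Slc25a5 being near mirror images. For comparison, the FPKM levels of 51.9% of all tested genes did not overlap, so this count does not stand out. The share of Slc25a18, among the 7, rests on 5 to 23 recovered reads per library. With 3 against 3 libraries no exact permutation p can go below 0.1, and the smallest value after Benjamini-Hochberg adjustment over the 14 was 0.2. The share of Slc25a5 among adenine nucleotide translocases differed by -5.36 percentage points, and that of Slc25a28 among mitoferrins by 2.66 points. Where shares do not overlap, leaving out a library cannot change the sign, so that check adds nothing for them.

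**Figure D4:**
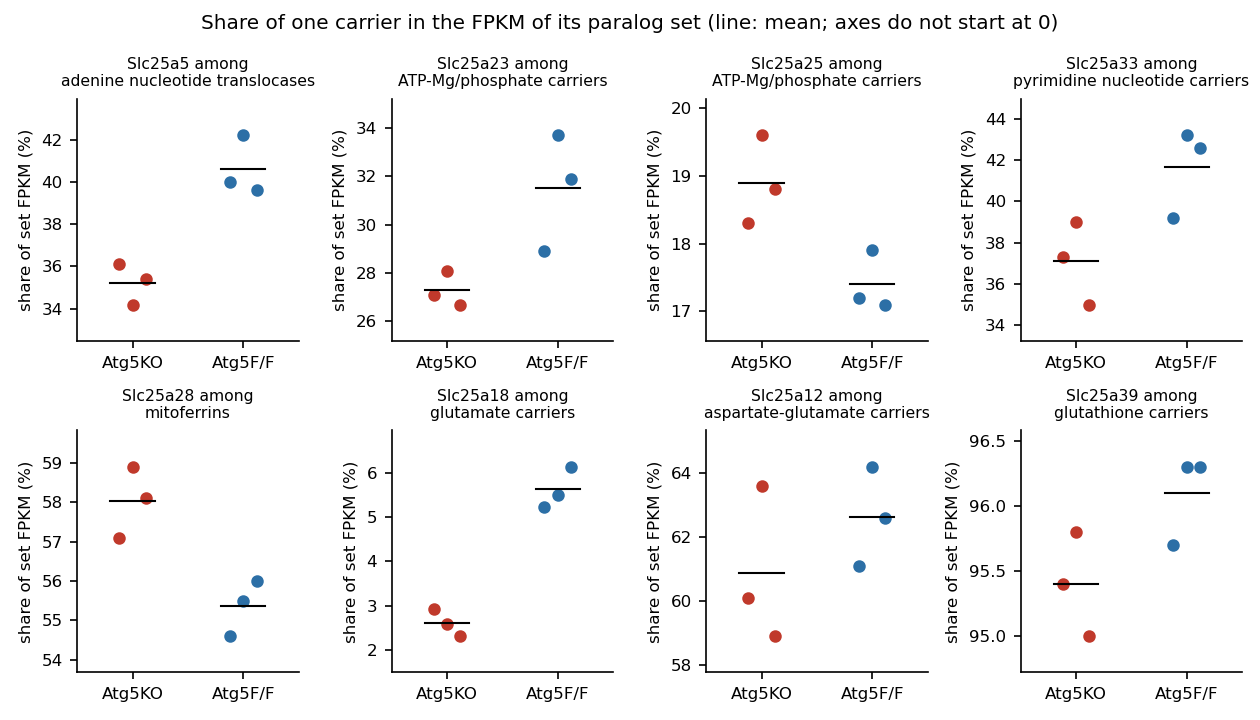
Share of a member in the summed FPKM of its close relatives, in percent, with 1 point per library and Atg5KO left of Atg5F/F, on axes that do not start at 0. Slc25a5 held 34.2% to 36.1% of the adenine nucleotide translocases in Atg5KO and 39.6% to 42.2% in Atg5F/F.

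The 9 members that did not pass the filter were Slc25a2, Slc25a18, Slc25a21, Slc25a31, Slc25a34, Slc25a41, Slc25a43, Slc25a53 and Slc25a54. In the authors' deposited table, Slc25a18 and Slc25a34 were lower and Slc25a21 was higher at an FDR under 0.05. The FDR was 0.0215 for Slc25a18 but only just under the threshold for Slc25a34 (0.0498) and Slc25a21 (0.0499). Slc25a21 overlapped between groups, with 39, 17 and 28 recovered reads in Atg5KO and 22, 24 and 14 in Atg5F/F. Slc25a34 had 2, 3 and 3 recovered reads in Atg5KO and 17, 7 and 8 in Atg5F/F. The authors' deposited table called 17 members lower and 4 higher in all, of which 13 and 3 were also called here. It also called Slc25a3 lower (log2 fold change -0.15, FDR 0.00265) and Slc25a4 lower (-0.13, FDR 0.0205), and did not call Slc25a26 (FDR 0.239). At the same FDR, the authors' deposited table called 22.0% of the genes tested here lower and 19.2% higher.

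Some members are neighbours in the genome (GRCm38, GENCODE vM21). Slc25a29 and Slc25a47 lie 162 bases apart on chromosome 12 on opposite strands, Slc25a41 and Slc25a23 2056 bases apart on chromosome 17, Slc25a54 and Slc25a24 6461 bases apart on chromosome 3, and Slc25a43 and Slc25a5 18448 bases apart on chromosome X. Only 1 member of each of the last 3 pairs passed the filter. Gene length moved with the calls: lower members had a median length of 1861 bases, higher members 2651 bases, members not called 2838 bases and all tested genes 2854 bases. The correlation of a library's deviation with gene length across genes was 0.115, 0.0395 and 0.344 in Atg5KO, against -0.197, -0.161 and -0.228 in Atg5F/F (Spearman's rho, genes not being independent). With this trend removed, all 17 called members kept their call and none was added.

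RefSeq promoters were matched for 36 of the 47 members, giving 46 windows to set against 32851 windows of all genes. A GC box stood in 82.6% of members' windows and 35.7% of all windows, and CCAAT in 47.8% and 37.4%. TGACNNNGC stood in 26.1% of members' windows and 12.4% of all, and the E-box CACGTG in 17.4% and 7.15%. The cyclic AMP response element TGACGTCA stood in the windows of Slc25a25 and Slc25a36, 4.35% against 1.79% of all. The NRF1 motif, the oestrogen-related receptor motif and the CEBP-ATF element were found in 0 member windows, against 0.971%, 0.423% and 3.97% of all. Both strands were searched. Members' windows had a median GC content of 59.3%, against 52.7% for all windows. A GC box was present for 10 of 10 lower, 3 of 3 higher and 13 of 16 uncalled members with a window.

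Genes that work beside the carriers were set out in 7 lists of transporters and enzymes. Of 111 genes, 100 were tested, and 44 fell and 11 rose in Atg5KO, with a median log2 fold change of -0.12. Over all tested genes, 17.9% fell and 21.3% rose, and the counts of each list below are to be set against these shares. Of 25 mitochondrial transporters without an Slc25a symbol, 12 fell and 2 rose, and the fall count was 7 without Atg5F/F replicate 3. These include Ucp2, Mtch1 and Mtch2, SLC25 family members under other symbols. Ucp2, an uncoupling protein, fell by 0.62 on the log2 scale. Abcb6, a haem-related transporter, fell by 0.44, while Micu2, a regulator of the calcium uniporter, rose by 0.24.

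Enzymes of the malate-aspartate and glycerol phosphate shuttles fell in 6 of 7 cases, with a median log2 fold change of -0.30. Got1 and Mdh1, the cytosolic aminotransferase and malate dehydrogenase of the shuttle that runs through Slc25a11, Slc25a12 and Slc25a13, changed by -0.39 and -0.34. Gpd1, cytosolic glycerol-3-phosphate dehydrogenase, whose shuttle uses no SLC25 carrier, changed by -1.16. Of 12 enzymes that handle citrate, oxoglutarate and glutamate, 6 fell and 2 rose. Idh2, mitochondrial isocitrate dehydrogenase, changed by -0.48.

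Of 14 enzymes of ornithine, glycine and branched-chain amino acids, 7 fell and none rose, with 1 rising without Atg5KO replicate 1 or 3. Amt and Gldc of the glycine cleavage system changed by -0.88 and -0.80, and Oat, ornithine aminotransferase, by -0.69. Of 20 genes of iron-sulphur clusters, haem and glutathione, 5 fell and 3 rose, with Gclc, the rate-limiting enzyme of glutathione synthesis, at 0.66, and Gsr and Gss, which reduce and complete glutathione, at -0.48 and -0.41. The fall count there was 8 with median-ratio scaling. Of 13 carnitine and CoA genes, 3 fell and 2 rose, the rise count being 1 without Atg5KO replicate 1, Atg5F/F replicate 1 or Atg5F/F replicate 3. With 38.5% called here and 40.0% in the iron-sulphur, haem and glutathione list, both lay near the 39.2% called over all tested genes. Of 9 adenylate, nucleoside diphosphate and creatine kinases, 5 fell and 2 rose, and the fall count was 3 without Atg5KO replicate 1 or 3 and 2 without Atg5F/F replicate 1. The rise count there was 1 without Atg5KO replicate 1 or Atg5F/F replicate 3.

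**Figure D5:**
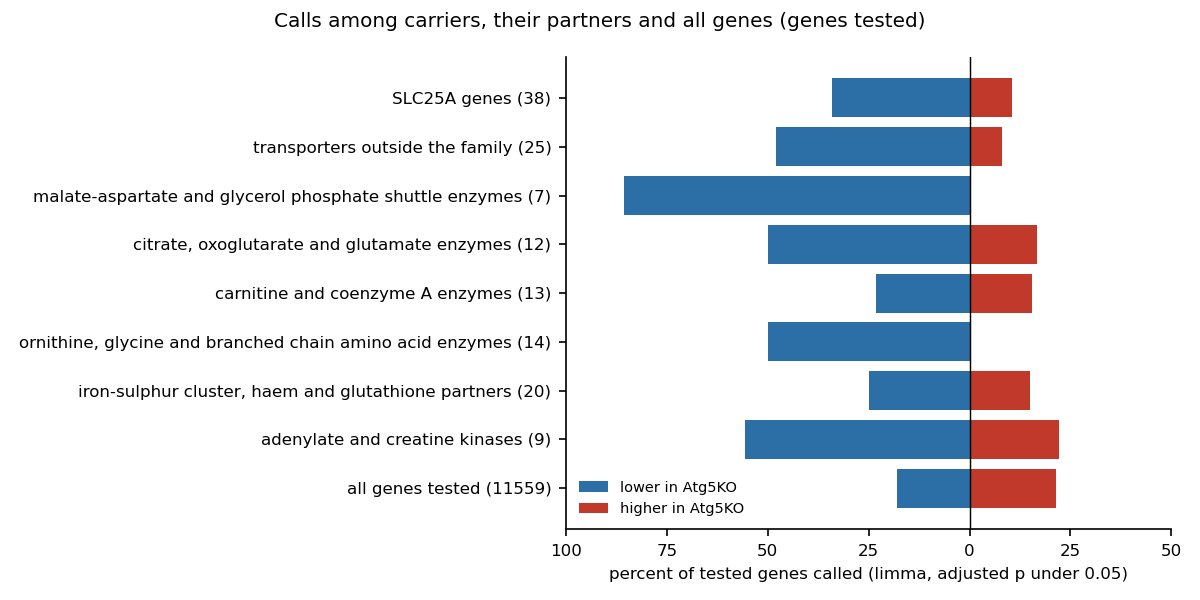
Percent of tested genes lower and higher in Atg5KO at an adjusted p under 0.05, with the number tested beside each name. Bars show the carriers with an Slc25a symbol, the lists of partner transporters and enzymes, and all genes. The list of transporters includes Ucp2, Mtch1 and Mtch2, SLC25 members under other symbols. The carriers had 34.2% lower and 10.5% higher, against 17.9% lower and 21.3% higher over all genes.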

How the data were processed

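Messenger RNA from primary mouse proximal tubular epithelial cells was sequenced in 3 Atg5KO and 3 Atg5F/F libraries, made with a stranded kit per the labels' protocols and sharing a batch date. The submitters' processing notes name HISAT2 2.1.0 and featureCounts 1.4.6 beside Trimmomatic 0.35, bcl2fastq and edgeR, with the builds GRCm38 and mm10. Not given in the sources used here are the strand setting, the annotation and the handling of multi-mapping reads. The authors deposited 1 table of FPKM values per library with a log2 fold change, a p-value and an FDR. Another deposited column, a rank of the genes, was not used.

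The test was limma 3.58.1 in R 4.3.3 on log2(FPKM + 1) of genes at 1 FPKM or more in 3 or more libraries, Benjamini-Hochberg adjusted over all 11559 genes tested, with calls under 0.05. Low FPKM steps gave whole reads for 18296 of 18296 genes above 0 (100%, within 0.0002 reads). The shortest gene length that gave whole reads was taken. For a gene with reads in only 1 library such a length is almost always found, so the 100% is no check of those genes. Reads were used for depths and for voom, which called 14 members lower and 4 higher. Shares were compared by exact permutation tests. Named genes were Atg5, the 14 called members with the largest change, the 6 most abundant members, and up to 4 called genes per list; other members are named to account for the family. Members and lists were chosen with earlier results of these data known. The test was also tested on simulated data. Some genes counted in the totals are not reported here by name. Tables were read with pandas 2.3.3 and numpy 2.4.6 in Python 3.11.15.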

Additional observations from a re-analysis of the deposited data

How the results depend on the processing

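Across the 15 alternatives run for the called members, none changed sign, and 11 (9 lower and 2 higher) were called in every alternative that tested them. Of these 11, Slc25a48 was tested in 14 alternatives, since it did not pass the filter of 5 FPKM. The members that lost a call under some alternative were Slc25a10, Slc25a15, Slc25a24, Slc25a26, Slc25a33 and Slc25a39. The number of higher members was 2 with no filter and 2 to 4 when each library was left out, and that of lower members 9 to 13. The median log2 fold change of the family was -0.10 with a filter of 5 FPKM, -0.064 with the length trend removed, -0.064 with the replicate block and the length trend removed, and -0.05 to -0.03 when each library was left out; the cause was not tested. Deviations of genes from their group mean correlated at 0.163, 0.0752 and -0.0227 between same-numbered libraries. The levels themselves correlated at 0.9779 to 0.9837 between libraries of different groups. With these low correlations of deviations and no shared animal marked in the labels, the numbers were not taken as pairs. With the replicate block, 13 members were lower and 3 higher, with a median of -0.04, and Slc25a26 was not called (limma adjusted p = 0.0613). Depth limits the members under 1 FPKM, and 3 libraries per group limit every interval.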
